A study of Oryza sativa with 12 samples.

Results

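The data described here concern 196 rice genes whose transcripts were more abundant in *ntl3-1*, a line with an edited Os*NTL3*, than in the wild type (WT) at both temperatures of the experiment. A gene was included when each of the 3 *ntl3-1* libraries at 45 ºC had at least 1 FPKM and exceeded the highest WT library at 45 ºC by a factor above 1.3, and when the same held among the libraries at 29 ºC. FPKM counts the sequenced fragments of a transcript relative to its length and to all mapped fragments of that library. The conditions were met by 419 genes at 45 ºC, by 832 genes at 29 ºC and by 196 genes at both, out of 55986 genes in the table. The upper limit of 300 genes was not reached. Turned round, the same conditions were met by 21 genes that were lower in *ntl3-1*. Because the values of *ntl3-1* and WT chose these genes, the differences between the genotypes are described without a test, and tests are given only for the response to temperature.

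Seedlings of *ntl3-1* and of WT (Nipponbare), all in the Nipponbare background and 8 days after germination, spent 3 h at 45 ºC or at 29 ºC, and RNA-Seq was performed on 3 replicates of each of the 4 groups. The groups were *ntl3-1* under heat stress at 45 ºC, WT under heat stress at 45 ºC, *ntl3-1* at 29 ºC and WT at 29 ºC. The *ntl3-1* mutant was made with CRISPR-Cas9 and is predicted to encode a prematurely truncated OsNTL3. It was the 1 edited line that was sequenced, so differences that belong to the line and differences that belong to the edited gene cannot be told apart. Whole seedlings were used, and nothing states that the replicates were separately grown, so the p-values measure the spread between these samples. In such bulk samples fewer cells of a type and less RNA per cell cannot be told apart.

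OsNTL3 belongs to the NAC family of plant transcription factors and carries a transmembrane domain near its C-terminus. NAC factors of this kind are held at a membrane and are released by cleavage under stress, after which the soluble part enters the nucleus and binds to the promoters of its targets. In rice OsNTL3 is linked to the heat stress response and to the response to unfolded proteins in the endoplasmic reticulum. A gene that is more abundant in the mutant at both temperatures may or may not be a target of the factor, and binding was not analysed here.

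Os*NTL3* (LOC_Os01g15640) itself was lower in the mutant in every comparison of single libraries at the same temperature. It had 28.7, 28.4 and 34.1 FPKM in *ntl3-1* at 45 ºC, against 57.5, 66.3 and 87.5 FPKM in WT at 45 ºC. At 29 ºC it had 13.9, 10.3 and 14.1 FPKM in *ntl3-1*, against 18.3, 21.8 and 20.5 FPKM in WT. The sum of all FPKM ranged from 1153023 to 1369236 in the libraries at 45 ºC and from 610880 to 698971 in those at 29 ºC. A single read was worth 1.69 to 2.03 times as much FPKM at 45 ºC as in the first WT library at 29 ºC, so that a given FPKM stood for fewer reads in the heat-stressed libraries. The 7 leaf markers (photosynthesis genes) exceeded 1 FPKM in all 12 libraries. Their summed level was 1.36 times as high in *ntl3-1* as in WT at 45 ºC (38558 to 48944 FPKM in *ntl3-1*, 26255 to 39656 FPKM in WT) and 1.43 times as high at 29 ºC (40532 to 49671 FPKM in *ntl3-1*, 27365 to 34467 FPKM in WT). The summed level of 7 root markers (transporters) was 0.888 times that of WT at 45 ºC and 1.02 times at 29 ºC. At 45 ºC it ranged from 159 to 214 FPKM in *ntl3-1* and from 137 to 289 FPKM in WT, with 4 to 6 root markers above 1 FPKM, and at 29 ºC it ranged from 503 to 679 FPKM in *ntl3-1* and from 533 to 600.1 FPKM in WT, with all 7 above. Of these 14 markers 0 are among the 196 genes, and the part that leaf or root content plays in the values below was not tested.

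The 196 genes differed widely in how far the mutant stood above WT. On the scale of log2(FPKM + 0.1), the difference *ntl3-1* minus WT had a median of 1.40 at 45 ºC, with quartiles of 0.98 and 2.77 and a range of 0.51 to 10.46. At 29 ºC the median difference was 2.0, with quartiles of 1.21 and 3.25 and a range of 0.56 to 10.88. The constant of 0.1 FPKM makes these differences smaller than the true ones for genes with low values, and where WT is listed at 0 they depend on it. The difference was larger at 29 ºC for 125 genes and larger at 45 ºC for 71 genes. The differences at both temperatures lay within 0.5 of each other for 94 genes and within 1 for 144 genes. Among the other genes, 38 had a difference at least 1 larger at 29 ºC and 14 had one at least 1 larger at 45 ºC. Taking the smaller of both differences, 129 genes reached 1, 60 reached 2, 42 reached 3 and 21 reached 5. The mean level over the *ntl3-1* libraries ran from 1.3 to 948 FPKM with a median of 11 FPKM. The median level of the 196 genes within a library was 11 to 11.4 FPKM in *ntl3-1* at 45 ºC and 2.90 to 3.33 FPKM in WT at 45 ºC, and 7.92 to 9.88 FPKM in *ntl3-1* at 29 ºC and 1.70 to 2.46 FPKM in WT at 29 ºC.

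**Figure D1:**
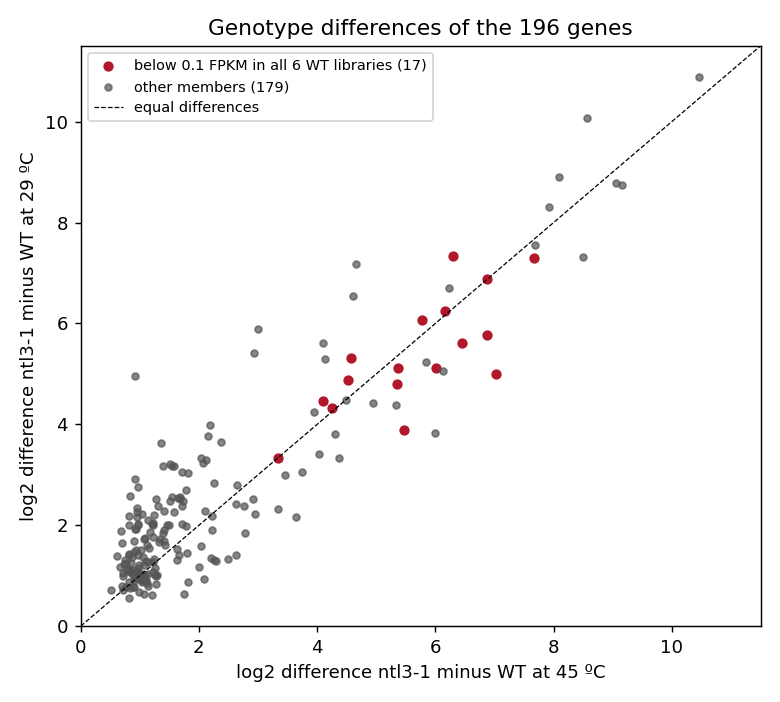
Difference *ntl3-1* minus WT on the scale of log2(FPKM + 0.1) at 45 ºC (horizontal axis) and at 29 ºC (vertical axis), with 1 point for each of the 196 genes, red for the 17 genes below 0.1 FPKM in all 6 WT libraries and grey for the other 179. The dashed line marks equal differences, and 125 points lie above it.

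The genes nearest to the factor of 1.3 show what the rule lets in and leaves out. LOC_Os09g06740 was included with a ratio of 1.3 between the lowest *ntl3-1* library and the highest WT library at 29 ºC, where it had 6.74, 8.0 and 7.18 FPKM in *ntl3-1* at 29 ºC, against 5.18, 3.49 and 5.08 FPKM in WT at 29 ºC. LOC_Os04g10530 was included with a ratio of 1.3 at 45 ºC, where it had 1.75, 1.66 and 2.29 FPKM in *ntl3-1* at 45 ºC, against 1.11, 0.742 and 1.27 FPKM in WT at 45 ºC. LOC_Os06g13760 missed the factor at 29 ºC, with 4.38, 5.16 and 4.95 FPKM in *ntl3-1* and 3.20, 3.37 and 3.18 FPKM in WT. LOC_Os07g23494 missed it at 45 ºC, with 2.48, 2.75 and 2.17 FPKM in *ntl3-1* and 1.15, 1.67 and 1.41 FPKM in WT. The ratios on either side of the factor were thus nearly equal.

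At the other end stood genes with almost no signal in WT. In the 10 genes with the largest difference, every *ntl3-1* library had at least 7.93 FPKM and no WT library had more than 0.90 FPKM. None of these 10 genes carries a product description in the sources used here, and they lie on chromosomes 2, 3, 7, 9 and 10. LOC_Os10g22630 had the largest difference of all. It had 349, 335 and 323 FPKM in *ntl3-1* at 45 ºC, against 0.225, 0 and 0.319 FPKM in WT at 45 ºC. The values at 29 ºC were 234, 264 and 279 FPKM in *ntl3-1*, against 0.0395, 0 and 0.0831 FPKM in WT. The log2 differences were 10.46 at 45 ºC and 10.88 at 29 ºC, and this gene was also the third most abundant of the 196 in *ntl3-1*.

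LOC_Os02g41961 reached its highest values at 29 ºC. It had 139, 152 and 138 FPKM in *ntl3-1* at 29 ºC, against 0.135, 0 and 0 FPKM in WT at 29 ºC. At 45 ºC it had 86.3, 66.8 and 95 FPKM in *ntl3-1*, against 0, 0.90 and 0 FPKM in WT, so that 1 heat-stressed WT library held all the signal of its group. LOC_Os07g06834 was similar in level at both temperatures within the mutant. It had 117, 119 and 92.7 FPKM in *ntl3-1* at 45 ºC, against 0.0597, 0 and 0.332 FPKM in WT at 45 ºC, and at 29 ºC 102, 107 and 105 FPKM in *ntl3-1*, against 0.164, 0.143 and 0.127 FPKM in WT. LOC_Os03g02470 had 91.3, 76.8 and 72.4 FPKM in *ntl3-1* at 45 ºC, against 0, 0.0522 and 0.125 FPKM in WT at 45 ºC, and at 29 ºC 53.3, 49.3 and 51.8 FPKM in *ntl3-1*, against 0, 0 and 0.0596 FPKM in WT. In all of these genes the lowest mutant library was far above the highest WT library, which follows from how they were chosen.

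The other genes of this group of 10 were LOC_Os03g18779, LOC_Os02g53240, LOC_Os09g11160, LOC_Os07g26100, LOC_Os07g05840 and LOC_Os07g39450. Their log2 differences ran from 6.88 (LOC_Os07g39450) to 8.50 (LOC_Os07g26100) at 45 ºC, and from 6.88 (LOC_Os07g39450) to 8.90 (LOC_Os03g18779) at 29 ºC. LOC_Os07g05840 was listed at 0 FPKM in all 6 WT libraries and had 18.9, 19.9 and 22.5 FPKM in *ntl3-1* at 45 ºC and 14.7, 16.4 and 16.1 FPKM in *ntl3-1* at 29 ºC. LOC_Os07g39450 was also listed at 0 FPKM in all 6 WT libraries. It had 10.4, 11.2 and 13.6 FPKM in *ntl3-1* at 45 ºC and 12.3, 16.5 and 7.93 FPKM in *ntl3-1* at 29 ºC, with more spread among the libraries at 29 ºC.

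**Figure D2:**
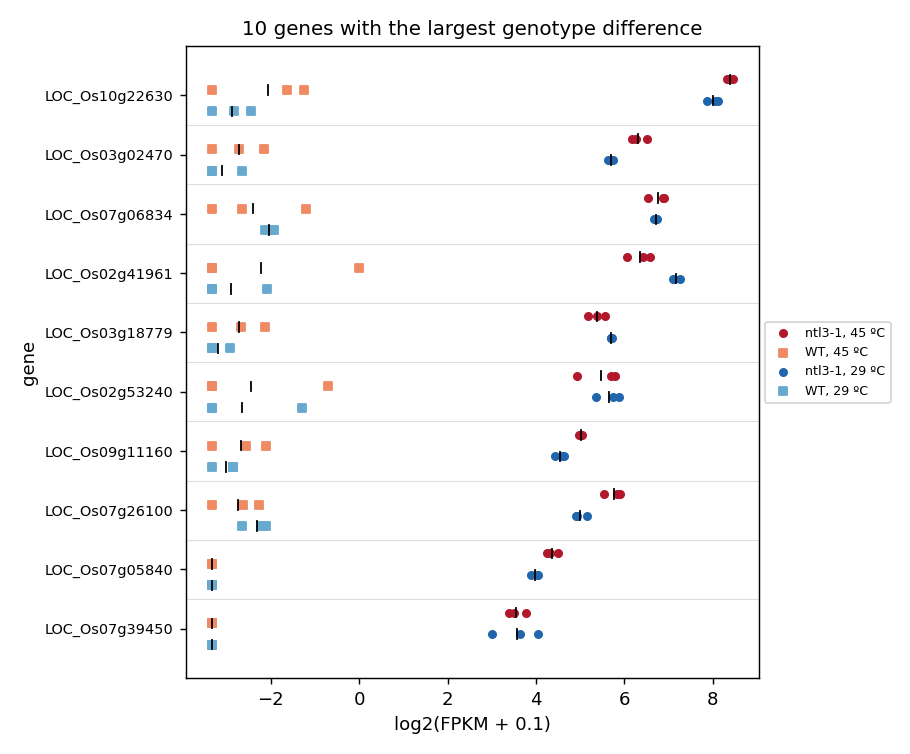
Values of single libraries as log2(FPKM + 0.1) for the 10 genes with the largest difference between genotypes, circles for *ntl3-1* and squares for WT, red and orange at 45 ºC and blue at 29 ºC, with a bar at the mean of each group of 3. Circles of *ntl3-1* stand far to the right of the squares of WT in every gene, because the genes were chosen for this difference. The squares at the left edge are values listed at 0 FPKM.

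Close to no signal in WT was seen for 17 of the 196 genes, which had less than 0.1 FPKM in each of the 6 WT libraries, and 13 of these were listed at 0 in all 6. Over the *ntl3-1* libraries they averaged 1.34 to 18.1 FPKM, with a median of 4.91 FPKM. Of all genes measured, 26426 were below 0.1 FPKM in all 6 WT libraries, and 17 of them reached at least 1 FPKM in all 6 *ntl3-1* libraries. In the opposite direction 2 genes were below 0.1 FPKM in all 6 *ntl3-1* libraries with at least 1 FPKM in all 6 WT libraries. LOC_Os01g63393, chosen after its values were seen, shows the pattern at 29 ºC, with 19.5, 20.5 and 10.4 FPKM in *ntl3-1* and 0 in the 3 WT libraries. Altogether 40 of the 196 genes were listed at 0 in at least 1 WT library, while 101 had at least 1 FPKM in all 6.

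The 5 most abundant genes in the mutant included genes with ample and with almost no signal in WT. LOC_Os01g21250 had the highest mean. It had 1697, 1723 and 1949 FPKM in *ntl3-1* at 45 ºC, against 1077, 854 and 1119 FPKM in WT at 45 ºC. The values at 29 ºC were 78.3, 105 and 137 FPKM in *ntl3-1*, against 17.9, 32 and 29.7 FPKM in WT, a log2 difference of 2.01 where that at 45 ºC was 0.82. The libraries of the genotypes did not overlap at either temperature, as the rule demands of every gene. LOC_Os03g45280 had 1356, 1028 and 1401 FPKM in *ntl3-1* at 45 ºC, against 672, 717 and 744 FPKM in WT at 45 ºC. The values at 29 ºC were 205, 223 and 218 FPKM in *ntl3-1*, against 138, 151 and 148 FPKM in WT, and this was the smallest log2 difference at 29 ºC of the 196 genes (0.56). LOC_Os12g08760 had 394, 358 and 374 FPKM in *ntl3-1* at 45 ºC, against 265, 160.4 and 119 FPKM in WT at 45 ºC, with the WT libraries spread widely. LOC_Os04g58850 had 355, 324 and 329 FPKM in *ntl3-1* at 45 ºC, against 83.3, 116 and 208 FPKM in WT at 45 ºC, and its replicate 3 was the highest WT library at both temperatures.

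Heat stress moved many of the 196 genes, more often upwards than downwards. A gene was called when the limma test of 45 ºC against 29 ºC gave an adjusted p of at most 0.05 and the log2FC was at least 1 in size, and errors of a log2FC are standard errors. Averaged over genotypes with equal weight for *ntl3-1* and WT, a contrast that the rule did not use, 55 of the 196 genes (28.1%) were higher at 45 ºC, where 13.4% of all 31681 genes tested were. By the same test 15 genes (7.65%) were lower at 45 ºC, where 11.9% of all genes tested were. The rule requires at least 1 FPKM in *ntl3-1*, and among the 17756 genes with at least 1 FPKM in all 6 *ntl3-1* libraries 14.5% were higher and 8.18% lower. The median log2FC of the 196 genes was 0.32, that of all genes tested −0.05 and that of the 17756 expressed genes 0.02. For the 13 genes listed at 0 in all 6 WT libraries the WT part of this average is fixed at 0. Of these 13 genes 1 was called higher, LOC_Os02g06610 with a log2FC of 1.01 that came from *ntl3-1* alone, and 0 were called lower. The test pools the spread of all 4 groups, and the constant WT zeros of these 13 genes lower it. Their adjusted p-values, here and within *ntl3-1*, thus understate the spread between the *ntl3-1* libraries. Among the other 183 genes 54 (29.5%) were higher and 15 (8.20%) lower. Without replicate 3 of WT at 29 ºC, the count of genes lower at 45 ºC was 9 in place of 15, and the share over all genes tested was not counted there.

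Within the mutant alone a higher level at 45 ºC was called for 50 of the 196 genes (25.5%), with 12.9% of all genes tested, and a lower level was called for 16 (8.16%), with 11.3% of all genes tested. Within WT 61 genes (31.1%) were higher, with 13.2% of all genes tested, and 17 (8.67%) were lower, with 11.8% of all genes tested. Among the 17756 expressed genes 13.9% were higher and 8.18% lower in *ntl3-1*, and 14.9% were higher and 8.76% lower in WT, so the shares of the 196 genes that were lower lay close to those of expressed genes. Without replicate 3 of WT at 29 ºC, 11 genes were lower in WT, and the share over all genes tested was not counted there. Each of these contrasts uses libraries that the rule also used, and they are given as a description. A rise was called in both genotypes for 42 genes, in *ntl3-1* alone for 8 and in WT alone for 19. A fall was called in both for 7 genes, in *ntl3-1* alone for 9 and in WT alone for 10, and 101 genes were called in neither. No gene was called in opposite directions, and the difference between the responses was not tested because it follows from the differences that chose the genes. This split between the genotypes was not counted over all genes tested, so it is not read as particular to the 196 genes.

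**Figure D3:**
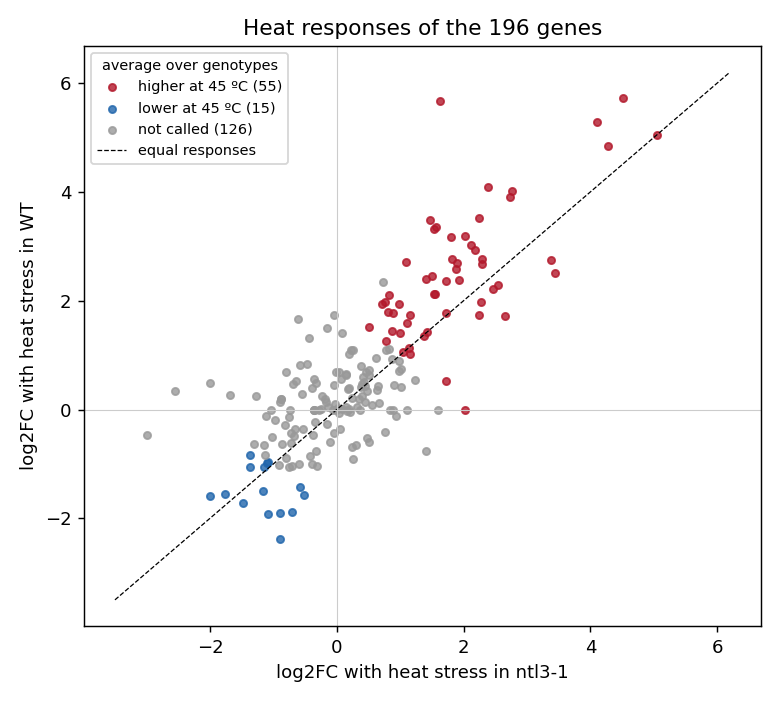
The log2FC with heat stress (45 ºC minus 29 ºC) in *ntl3-1* (horizontal axis) and in WT (vertical axis), with 1 point for each of the 196 genes. Points are red for the 55 genes higher at 45 ºC averaged over genotypes, blue for the 15 lower and grey for the 126 not called, and the dashed line marks equal responses.

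Product descriptions were taken from the study's list of loci, of which 3185 loci were used here because the copy is truncated. They covered 44 of the 196 genes, which is 1.38% of these loci, and gave a description for 26. That list was chosen on these samples for changes with heat stress, so it is no independent evidence that its genes respond to heat. By words in the descriptions the genes held 1 WRKY factor of 20 such loci in the list, 1 AP2 factor of 18, 2 calcium-binding proteins of 33, 1 C3HC4 zinc finger protein of 82 in the ubiquitin ligase group, 3 of 126 in the kinase and phosphatase group, 1 of 34 sugar transferases, 1 of 3 heavy-metal-associated proteins, 1 of 9 auxin-responsive proteins and 1 of 29 redox proteins. The 37 defence loci, the 6 jasmonate loci and the 29 loci for heat shock proteins and chaperones held 0 of the genes. With a share of 1.38% in the whole list, counts of 0 or 1 in groups this small say nothing particular about a group. Of the 12 genes 9 were called higher at 45 ºC averaged over genotypes and 0 lower, where 49.8% of the 3185 loci were called higher and 22.5% lower. Of all 44 genes in the list 28 were called higher and 6 lower.

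Among transcription factors, OsWRKY71 (LOC_Os02g08440) belongs to the WRKY family, whose members bind W-box elements and are best known from defence and stress responses. It had 107, 108 and 154 FPKM in *ntl3-1* at 45 ºC, against 56.2, 47.4 and 68.4 FPKM in WT at 45 ºC. Without heat stress it had 22.7, 39.1 and 55.5 FPKM in *ntl3-1*, against 12, 8.36 and 12.9 FPKM in WT, with a wide spread in the mutant. It rose with heat stress, with a log2FC averaged over genotypes of 2.04 ± 0.21, adjusted p = 1.14e-05. The AP2 domain protein LOC_Os04g52090 belongs to a family that includes ethylene and drought response factors. It had 143, 176 and 192 FPKM in *ntl3-1* at 45 ºC, against 43.3, 43.9 and 76.1 FPKM in WT at 45 ºC. Without heat stress it had 60.6, 86.7 and 145 FPKM in *ntl3-1*, against 8.89, 11.6 and 34.7 FPKM in WT, where replicate 3 was the highest library in both genotypes. Its log2FC with heat stress was 1.33 ± 0.34, adjusted p = 0.00544, and after quantile normalization it was 0.81 (adjusted p = 0.0654).

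VQ proteins are known as partners of WRKY factors, and the VQ domain gene LOC_Os01g17050, like 8 other described genes below that fall in no list, was named after its values were seen. It had 45.4, 58.4 and 84.3 FPKM in *ntl3-1* at 45 ºC, against 17.7, 17.9 and 29.8 FPKM in WT at 45 ºC. Its libraries at 29 ºC had 6.69, 12.3 and 18.4 FPKM in *ntl3-1*, against 0.778, 0.756 and 2.47 FPKM in WT. Its genotype difference was 1.52 at 45 ºC and 3.22 at 29 ºC, and it rose with heat stress (log2FC 3.24 ± 0.34, adjusted p = 1.09e-05). The C2H2 zinc finger gene ZOS11-10 (LOC_Os11g47630) had little spread within each WT group, with 1.67, 1.66 and 1.63 FPKM under heat stress, against 0.463, 0.505 and 0.393 FPKM at 29 ºC. In *ntl3-1* it had 5.19, 2.55 and 6.37 FPKM under heat stress, against 6.99, 5.06 and 8.63 FPKM at 29 ºC. Its difference between genotypes was thus larger at 29 ºC (3.63) than at 45 ºC (1.36), and it was not called for heat averaged over genotypes (log2FC 0.53 ± 0.22, adjusted p = 0.0542).

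In calcium signalling, OsCML22 (LOC_Os04g41540) is a calmodulin-related sensor that binds calcium ions. It had 51.9, 54.2 and 63.3 FPKM in *ntl3-1* at 45 ºC, against 33.8, 37.4 and 31.9 FPKM in WT at 45 ºC, and at 29 ºC 21.4, 19.3 and 22.4 FPKM in *ntl3-1*, against 11.6, 13.4 and 13.2 FPKM in WT. The log2 difference between genotypes was nearly the same at 45 ºC (0.71) and 29 ºC (0.72), and it rose with heat stress in both, with log2FC of 1.42 ± 0.10, adjusted p = 1.54e-06, in *ntl3-1* and of 1.43 ± 0.10, adjusted p = 1.34e-06, in WT. The EF hand gene LOC_Os09g24580 had 8.35, 21 and 24.8 FPKM in *ntl3-1* at 29 ºC, against 2.56, 1.72 and 4.11 FPKM in WT at 29 ºC. At 45 ºC it had 11.5, 13.1 and 11.5 FPKM in *ntl3-1*, against 7.85, 5.76 and 6.68 FPKM in WT, and it was not called averaged over genotypes (log2FC 0.44 ± 0.27, adjusted p = 0.191). Its log2FC was −0.44 ± 0.39, adjusted p = 0.385, in *ntl3-1* and 1.32 ± 0.39, adjusted p = 0.016, in WT, and without replicate 1 of *ntl3-1* at 29 ºC the average was 0.20.

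Kinases were represented by a MAP3K, a receptor-like kinase and a receptor kinase described as inactive. MAP3K.19 (LOC_Os05g46760) is of the class that stands at the top of MAP kinase cascades. It had 19.4, 21.5 and 24.3 FPKM in *ntl3-1* at 45 ºC, against 4.9, 5.73 and 11.5 FPKM in WT at 45 ºC, and at 29 ºC 3.01, 4.42 and 8.78 FPKM in *ntl3-1*, against 1.05, 0.533 and 0.776 FPKM in WT. It rose with heat stress (log2FC 2.57 ± 0.29, adjusted p = 1.82e-05). The serine/threonine kinase receptor gene LOC_Os01g57560 had 1.92, 1.85 and 1.98 FPKM in *ntl3-1* at 45 ºC, against 3.52, 3.75 and 3.78 FPKM in *ntl3-1* at 29 ºC. In WT it had 0.882, 1.05 and 0.721 FPKM with heat stress, against 1.8, 1.9 and 1.98 FPKM at 29 ºC. Its log2FC of −0.97 ± 0.11, adjusted p = 2.29e-05, stayed just under the size of 1 required for a call. LOC_Os09g23570, the inactive receptor kinase, had 6.1, 6.85 and 5.02 FPKM in *ntl3-1* at 45 ºC, against 2.64, 2.58 and 3.49 FPKM in WT at 45 ºC. Its heat response was just above that size (log2FC 1.02 ± 0.15, adjusted p = 1.89e-04). Without replicate 1 of *ntl3-1* at 29 ºC its log2FC was 0.93, without replicate 2 of *ntl3-1* at 45 ºC or replicate 2 of WT at 29 ºC it was 0.97, and without replicate 3 of WT at 45 ºC it was 0.95, all below 1. With a constant of 1 FPKM it was 0.75.

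The C3HC4 zinc finger gene LOC_Os02g52210 belongs to the RING type, whose members often act as ubiquitin ligases that mark proteins for degradation. It had 191, 158 and 197 FPKM in *ntl3-1* at 45 ºC, against 90.8, 83.5 and 118 FPKM in WT at 45 ºC. Its libraries at 29 ºC had 7.23, 9.96 and 11 FPKM in *ntl3-1*, against 2.8, 3.27 and 3.79 FPKM in WT. It had the strongest rise with heat stress among the genes with a description in the lists (log2FC 4.56 ± 0.13, adjusted p = 6.35e-10). The glutaredoxin gene OsGrx_C11 (LOC_Os12g35340), whose class reduces disulphides with glutathione, had 22.4, 27.4 and 25.7 FPKM in *ntl3-1* at 45 ºC, against 16.7, 13.8 and 15.8 FPKM in WT at 45 ºC. At 29 ºC it had 5.26, 8.7 and 7.51 FPKM in *ntl3-1*, against 1.61, 2.06 and 3.02 FPKM in WT, and it rose with heat stress (log2FC 2.30 ± 0.16, adjusted p = 5.09e-07). OsSAUR12 (LOC_Os02g52990) is of a family of small genes that respond quickly to auxin. It had 33.5, 36.9 and 52.1 FPKM in *ntl3-1* at 45 ºC, against 24, 12 and 20.5 FPKM in WT at 45 ºC, and its log2FC with heat stress was 1.46 ± 0.31, adjusted p = 0.00204.

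Among enzymes of metabolism and the cell wall, the nitrate reductase gene LOC_Os02g53130 encodes the enzyme that turns nitrate into nitrite. It had 29.3, 35.2 and 44.6 FPKM in *ntl3-1* at 45 ºC, against 14.1, 13.4 and 17.1 FPKM in WT at 45 ºC. At 29 ºC it had 3.69, 4.75 and 7.97 FPKM in *ntl3-1*, against 0.939, 0.759 and 0.771 FPKM in WT. It rose with heat stress (log2FC 3.39 ± 0.18, adjusted p = 6.22e-08). The gene of an NADP-dependent oxidoreductase, LOC_Os04g41960, had 41.8, 43 and 64.7 FPKM in *ntl3-1* at 29 ºC, against 9.34, 8.71 and 14.5 FPKM in WT at 29 ºC, and it rose as well (log2FC 1.98 ± 0.17, adjusted p = 2.88e-06). The COBRA-like gene LOC_Os03g18910 is of a family known from Arabidopsis for its part in cellulose deposition. It had 12.4, 13.2 and 13.4 FPKM in *ntl3-1* at 45 ºC, against 5.73, 7.02 and 7.53 FPKM in WT at 45 ºC, and rose with heat stress (log2FC 1.44 ± 0.17, adjusted p = 2.34e-05). The glycosyltransferase gene LOC_Os01g31370 had 2.12, 1.8 and 3.45 FPKM in *ntl3-1* at 29 ºC, against 0.265, 0.543 and 0.598 FPKM in WT at 29 ºC, and its log2FC with heat stress was 1.32 ± 0.22, adjusted p = 3.63e-04, which became 0.79 with a constant of 1 FPKM.

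The harpin-induced domain gene LOC_Os01g64470 is of a family named in tobacco after its induction by a bacterial elicitor. It had 15, 21.6 and 42.9 FPKM in *ntl3-1* at 29 ºC, against 2.55, 2.0 and 5.71 FPKM in WT at 29 ºC. Its genotype difference was 0.91 at 45 ºC and 2.92 at 29 ºC, and it rose with heat stress (log2FC 2.48 ± 0.28, adjusted p = 2.33e-05). LOC_Os02g37300, with a heavy-metal-associated domain, was the most abundant of the described genes in the mutant. It had 241, 290.3 and 201 FPKM in *ntl3-1* at 45 ºC, against 61.2, 106 and 116 FPKM in WT at 45 ºC, and at 29 ºC 157, 189 and 296 FPKM in *ntl3-1*, against 30.4, 35.3 and 71.9 FPKM in WT. Its log2FC with heat stress was 0.66 ± 0.25, adjusted p = 0.044, below the size required for a call, and after quantile normalization it was −0.06.

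Described genes that fell with heat stress were fewer. The same holds for the study's list that gave the descriptions, where 49.8% of loci were called higher and 22.5% lower. The genes LOC_Os06g11830 and LOC_Os07g15340 both carry a hAT dimerisation domain, which is found in transposases of the hAT superfamily and in proteins derived from them. LOC_Os06g11830 had 3.05, 2.83 and 3.33 FPKM in *ntl3-1* at 45 ºC, against 0.529, 0.556 and 0.56 FPKM in WT at 45 ºC, and at 29 ºC 6.26, 5.15 and 6.07 FPKM in *ntl3-1*, against 2.19, 2.66 and 2.15 FPKM in WT. LOC_Os07g15340 had 2.2, 2.36 and 2.52 FPKM in *ntl3-1* at 45 ºC, against 0.258, 0.457 and 0.313 FPKM in WT at 45 ºC, and at 29 ºC 4.14, 3.8 and 3.82 FPKM in *ntl3-1*, against 1.49, 1.58 and 1.43 FPKM in WT. The genotype difference of both was larger at 45 ºC (2.29 and 2.50) than at 29 ºC (1.28 and 1.33). Both fell with heat stress averaged over genotypes, LOC_Os06g11830 with a log2FC of −1.40 ± 0.10, adjusted p = 8.02e-07, and LOC_Os07g15340 with −1.30 ± 0.13, adjusted p = 8.61e-06. The rhomboid gene OsRhmbd17 (LOC_Os10g37760), of a family of proteases that cut within membranes, also fell (log2FC −1.22 ± 0.24, adjusted p = 0.00136). With a constant of 1 FPKM these 3 falls were smaller than 1 in size, at −0.92 for LOC_Os06g11830, −0.73 for LOC_Os07g15340 and −0.81 for LOC_Os10g37760. Near-identical copies of such genes may share reads, and these values are uncertain to that extent.

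**Figure D4:**
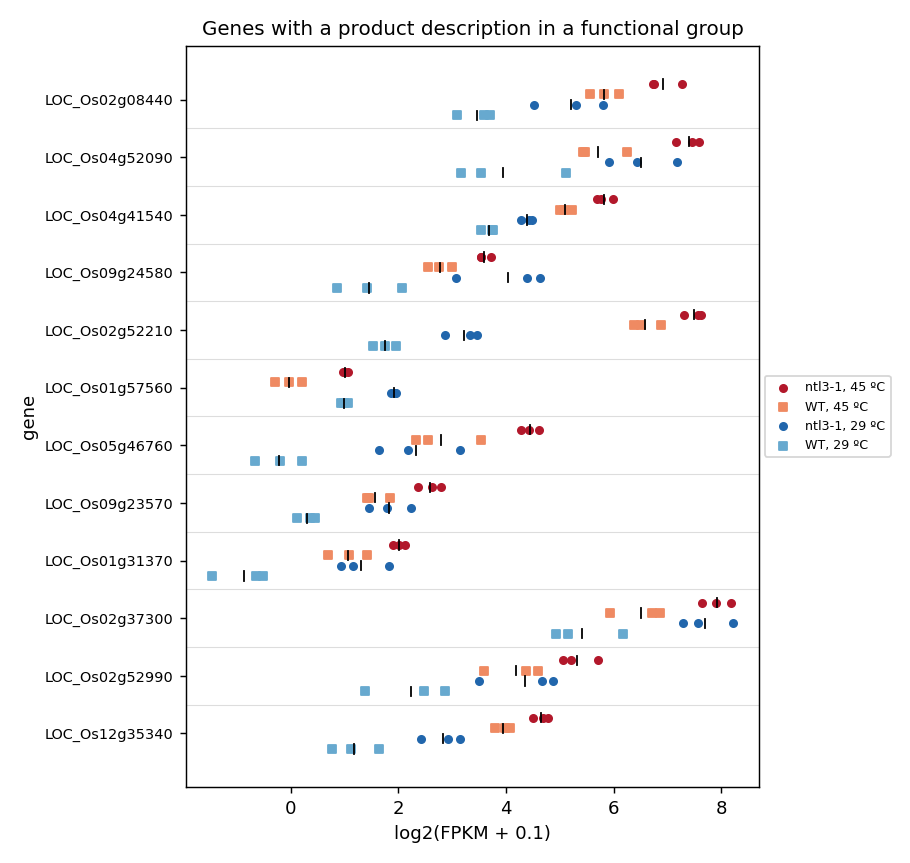
Values of single libraries as log2(FPKM + 0.1) for the 12 genes with a product description in a functional group, circles for *ntl3-1* and squares for WT, red and orange at 45 ºC and blue at 29 ºC, with a bar at the mean of each group of 3. At each temperature the circles of *ntl3-1* lie to the right of the squares of WT, as the rule requires. In LOC_Os02g52210 the libraries at 45 ºC lie far to the right of those at 29 ºC in both genotypes.

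The 55 genes that rose had a median log2FC of 2.13, with a range of 1.01 to 5.12. For 42 of them the genotype difference was larger at 29 ºC than at 45 ºC, with medians of 1.22 at 45 ºC and 2.0 at 29 ºC. LOC_Os10g09240, described only as an expressed protein, had the largest rise. It had 147, 136 and 183 FPKM in *ntl3-1* at 45 ºC, against 5.68, 6.44 and 7.89 FPKM in *ntl3-1* at 29 ºC. In WT it had 97.2, 104 and 88.5 FPKM with heat stress, against 0.98, 1.85 and 2.77 FPKM at 29 ºC. The libraries of the temperatures stood far apart in both genotypes, and the log2FC was 5.12 ± 0.20, adjusted p = 7.45e-09.

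LOC_Os07g37620 rose with a log2FC of 5.05 in *ntl3-1* and of 5.05 in WT. It had 132, 116 and 166 FPKM in *ntl3-1* at 45 ºC, against 3.39, 5.03 and 3.82 FPKM in *ntl3-1* at 29 ºC. In WT it had 69, 65.3 and 86.3 FPKM with heat stress, against 2.37, 2.22 and 1.78 FPKM at 29 ºC. The log2FC averaged over genotypes was 5.05 ± 0.13, adjusted p = 3.35e-10. LOC_Os01g21250, the most abundant gene, rose with a log2FC of 4.70 ± 0.17, adjusted p = 4.27e-09. For LOC_Os01g09220 the mutant at 29 ºC was already high. It had 34.1, 42 and 86.8 FPKM in *ntl3-1* at 29 ºC, against 0.581, 0.809 and 6.67 FPKM in WT at 29 ºC, where replicate 3 was the highest library of both genotypes. At 45 ºC it had 137, 148 and 183 FPKM in *ntl3-1*, against 62.9, 84.9 and 102 FPKM in WT, and the log2FC averaged over genotypes was 3.65 ± 0.50, adjusted p = 9.41e-05.

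The 15 genes that fell had log2FC from −1.79 to −1.0 with a median of −1.30. LOC_Os06g02019 fell most. It had 6.02, 5.03 and 7.72 FPKM in *ntl3-1* at 45 ºC, against 23.4, 26.4 and 24.9 FPKM in *ntl3-1* at 29 ºC. In WT it had 3.34, 1.6 and 2.52 FPKM with heat stress, against 8.45, 5.83 and 8.17 FPKM at 29 ºC. The temperatures did not overlap in either genotype (log2FC −1.79 ± 0.18, adjusted p = 7.26e-06). LOC_Os03g58980 had 18.5, 19.3 and 18.1 FPKM in *ntl3-1* at 45 ºC, against 13.6, 13.1 and 12.6 FPKM in WT at 45 ºC, the smallest genotype difference at 45 ºC of the 196 genes (0.51). Its replicates agreed closely, and it fell with heat stress (log2FC −1.66 ± 0.06, adjusted p = 2.27e-09). LOC_Os08g14760 (log2FC −1.60 ± 0.12, adjusted p = 8.51e-07) and LOC_Os01g36064 (log2FC −1.51 ± 0.17, adjusted p = 2.20e-05) fell as well, the last with −0.98 at a constant of 1 FPKM.

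LOC_Os06g24040 passed the threshold narrowly (log2FC −1.64 ± 0.63, adjusted p = 0.044). At 45 ºC it had 3.01, 3.4 and 2.92 FPKM in *ntl3-1*, against 1.6, 0 and 0 FPKM in WT, so 1 WT library held all the signal. Its call was lost when any single library other than replicate 1 of WT at 45 ºC was left out, with log2FC from −1.76 to −1.30 and adjusted p from 0.0532 to 0.0972. Over all 20 alternatives the call was lost in 17. Under those that kept all libraries the log2FC ranged from −2.72 to −0.73. The 10 genes with the largest genotype difference have so little signal in WT that their response there, and with it the average over genotypes, cannot be read. In *ntl3-1* alone 0 of these 10 were called by limma, with log2FC from −0.80 (LOC_Os02g41961) to 0.76 (LOC_Os07g26100). The 42 genes with genotype differences of at least 3 at both temperatures were called higher at 45 ºC in *ntl3-1* in 8 cases (19.0%). They were called lower in 2 cases (4.76%). Among the 87 genes whose smaller difference lay between 1 and 3, 23 (26.4%) rose in *ntl3-1* and 9 (10.3%) fell. Among the 67 genes whose smaller difference was below 1, 19 (28.4%) rose in *ntl3-1* with heat stress and 5 (7.46%) fell. Of all genes tested 12.9% were called higher and 11.3% lower in *ntl3-1*. Of the 17756 expressed genes 13.9% were called higher and 8.18% lower in *ntl3-1*. The expressed genes are the closer comparison, because the rule requires expression in *ntl3-1*. The differences between these shares were not tested. The test pools the spread of all 4 groups, so WT values near 0 also shape the standard errors in *ntl3-1*. LOC_Os01g64949, with WT libraries from 0 to 0.568 FPKM, was not called in *ntl3-1* (log2FC −1.69 ± 0.76, adjusted p = 0.0936). LOC_Os01g63393, at 0 in all WT libraries, was called lower in *ntl3-1* (log2FC −1.04 ± 0.29, adjusted p = 0.0129). The shares among genes with little signal in WT therefore depend in part on the WT values.

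The 196 genes were spread over all 12 chromosomes, read from the locus names. Chromosome 1, which carries Os*NTL3*, held 29 of them, 0.639% of its genes tested. The share was highest on chromosome 12 with 19 genes (0.981%), which included 5 of the 17 genes below 0.1 FPKM in WT, and lowest on chromosome 11 with 5 genes (0.25%). The nearest gene to Os*NTL3* in the order of locus names was LOC_Os01g16200, 53 loci away. These shares were not tested.

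**Figure D5:**
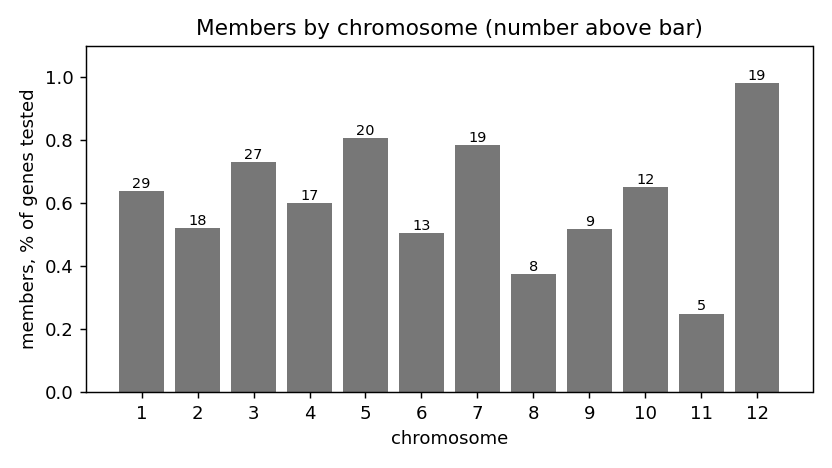
Share of the genes tested on each chromosome that belong to the 196 genes, in percent, with the number of such genes above each bar. Chromosome 12 has the highest bar (19 genes, 0.981%) and chromosome 11 the lowest (5 genes, 0.25%).

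In 12 places a gene stood within 10 loci of another one on its chromosome, and 26 of the 196 genes lay in such places. The number of such places for as many genes picked at random was not computed, so no clustering is claimed. The longest run held 4 consecutive loci on chromosome 5, LOC_Os05g05140 to LOC_Os05g05170. LOC_Os05g05140 had 133, 135 and 139.7 FPKM in *ntl3-1* at 45 ºC, against 61.8, 57.4 and 78.9 FPKM in WT at 45 ºC. LOC_Os05g05150 had 8.26, 8.42 and 7.99 FPKM in *ntl3-1* at 45 ºC, against 5.48, 4.77 and 4.82 FPKM in WT at 45 ºC. LOC_Os05g05160 had 50.3, 52.2 and 58.6 FPKM in *ntl3-1* at 45 ºC, against 31.3, 28.4 and 30.3 FPKM in WT at 45 ºC. The genotype differences of these first 3 genes lay between 0.70 and 1.05 at 45 ºC and between 0.77 and 1.03 at 29 ºC, and LOC_Os05g05170 had differences of 2.01 at 45 ºC and 1.17 at 29 ºC. The loci on either side with signal did not share the difference at 45 ºC, with −0.13 for LOC_Os05g05130 and 0.00 for LOC_Os05g05180, while at 29 ºC the differences were −0.36 for LOC_Os05g05130 and 0.71 for LOC_Os05g05180.

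Adjacent loci also went together among the genes without signal in WT. LOC_Os07g05850, next to LOC_Os07g05840, had 3.5, 3.96 and 4.81 FPKM in *ntl3-1* at 45 ºC and 4.28, 2.95 and 3.41 FPKM in *ntl3-1* at 29 ºC, and was listed at 0 in 5 of the 6 WT libraries. On chromosome 12, LOC_Os12g13445 had 1.97, 2.57 and 2.47 FPKM in *ntl3-1* at 45 ºC, against 0, 0 and 0.163 FPKM in WT at 45 ºC, and its neighbour LOC_Os12g13450 was listed at 0 in all WT libraries and had 1.27, 3.06 and 2.74 FPKM in *ntl3-1* at 45 ºC. LOC_Os12g43380 and LOC_Os12g43430, which had signal in all WT libraries, shared a pattern in which the mutant was highest at 29 ºC. LOC_Os12g43380 had 147, 291 and 175 FPKM in *ntl3-1* at 29 ºC, against 6.34, 1.51 and 3.31 FPKM in WT at 29 ºC, and at 45 ºC 83.7, 45.3 and 9.68 FPKM in *ntl3-1*, against 4.36, 2.98 and 5.19 FPKM in WT. LOC_Os12g43430 had 31.6, 43 and 28.8 FPKM in *ntl3-1* at 29 ºC, against 0.946, 0.396 and 0.897 FPKM in WT at 29 ºC, and at 45 ºC 23.7, 7.46 and 3.36 FPKM in *ntl3-1*, against 0.887, 0.836 and 1.42 FPKM in WT. In both genes replicate 1 was the highest and replicate 3 the lowest library of *ntl3-1* at 45 ºC.

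LOC_Os03g14820 stood beside a gene that differed in the other direction. It had 3.09, 3.43 and 1.65 FPKM in *ntl3-1* at 45 ºC, against 0, 0.122 and 0 FPKM in WT at 45 ºC. The adjacent LOC_Os03g14810, 1 of the 21 genes lower in *ntl3-1* at both temperatures, was listed at 0 in all 3 *ntl3-1* libraries at 45 ºC, against 3.36, 1.74 and 1.97 FPKM in WT at 45 ºC. At 29 ºC it had 4.53, 5.39 and 7.74 FPKM in *ntl3-1*, against 15.0, 15.4 and 19.3 FPKM in WT. The pair LOC_Os09g17146 and LOC_Os09g17152 rose together with heat stress, with log2FC of 2.43 ± 0.22, adjusted p = 3.59e-06, and 1.90 ± 0.26, adjusted p = 9.61e-05. Around the 12 places, 63 neighbouring loci had a group mean of at least 1 FPKM, and their median difference *ntl3-1* minus WT was −0.01 at 45 ºC and 0.06 at 29 ºC. Of these neighbours 8 were higher in *ntl3-1* by more than 0.5 at both temperatures and 1 was lower by more than 0.5. The same shares over all loci were not computed. The counting was not stated to use strand, so reads of overlapping or antisense neighbours cannot be told apart.

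The 196 genes had a larger median spread among replicates than expressed genes as a whole. The median standard deviation of log2 values within a group was 0.33 for them and 0.20 for the 20729 genes with a mean of at least 1 FPKM. The 196 genes were not left out of this larger set, and the sets were not matched in level. Of the 196 genes 40 were listed at 0 in at least 1 WT library, and the part that low WT values play was not tested. Replicate 3 gave the highest of the 3 values for 92 of the 196 genes in *ntl3-1* at 45 ºC, for 93 in WT at 45 ºC, for 118 in *ntl3-1* at 29 ºC and for 101 in WT at 29 ºC. The median deviation of the 196 genes from their group mean was 0.04 to 0.16 on the log2 scale in the libraries of replicate 3, and below 0 in all 8 other libraries. Replicate 3 was the highest in all 4 groups for 29 genes and in none for 21. In WT at 29 ºC, 15 genes had at least 1 FPKM in replicate 3 and at least 2 times the value of both other replicates, and for 14 of these replicate 3 was also the highest library of *ntl3-1* at 29 ºC. LOC_Os04g52090 and LOC_Os01g09220, described above, show this pattern. These counts were not made over other genes, so a trait of the 196 genes and a shift of whole libraries cannot be told apart here. What replicate 3 of the groups has in common is not stated in the labels.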

How the data were processed

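RNA-Seq was performed on whole seedlings in 12 libraries. Per the paper, the authors trimmed reads with SeqPrep and Sickle, mapped them to the MSU rice reference genome by means of TopHat, quantified genes as FPKM in RSEM and ran edgeR. The submitters' processing notes name Bowtie 0.12.2 and the genome build mm8, a mouse build. The values used here are the FPKM deposited by the authors, and whether they were scaled further is not given in the sources used here. No read counts were analysed, so the depth is unknown, no counting error was computed, and 0 other columns of samples were left unused. Groups were read from the sample titles and genotype labels, and the temperatures from the paper.

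Genes above 0 FPKM in at least 3 of 12 libraries (31681 genes, all 196 described genes among them) were tested with limma 3.58.1 in R 4.3.3 on log2(FPKM + 0.1), with 1 mean per group, 8 residual degrees of freedom and variances that follow the mean. Tests were two-sided, with Benjamini-Hochberg adjustment over all genes tested. The contrast was 45 ºC minus 29 ºC, averaged over genotypes and within each. The procedure was tested on simulated data.

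The 196 genes and the gene lists were chosen with earlier results of these data known. Genes are named for the 5 highest mean levels in *ntl3-1*, the 10 largest genotype differences (the smaller of both temperatures), the 5 largest rises and falls with heat stress, up to 4 genes per functional list, those nearest to the factor of 1.3 and those in runs of neighbouring loci. The lists were WRKY, AP2/ERF, calcium, ubiquitin ligase, kinase and phosphatase, defence, jasmonate, sugar transferase, heavy-metal-associated, auxin, redox, and heat shock and chaperone. From the study's supplementary list, truncated to 3185 loci, only product descriptions were used, and its columns of fold changes and p-values were not. Of the described genes 1 matched a symbol in the RefSeq gene table, so no coordinates or sequences are given. Alternatives were other constants, filters, scalings, variance models and thresholds, a replicate block and each library left out in turn.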

Additional observations from a re-analysis of the deposited data

Results flagged for a closer look

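In 5 of the 196 genes the libraries of both genotypes moved in opposite directions with heat stress without overlap. How many of all genes tested do so was not counted, so the number is not read as a trait of the 196 genes. The differences between the log2 responses (*ntl3-1* minus WT) were not tested, since they follow from the values that chose the genes.

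LOC_Os05g45170 differed most, by 2.17. In *ntl3-1* it was higher at 45 ºC (5.57, 7.2 and 6.18 FPKM) than at 29 ºC (2.47, 2.75 and 1.81 FPKM). In WT it was listed at 0 in all 3 libraries at 45 ºC and had 0.14, 0.0408 and 0.0453 FPKM at 29 ºC. Values this low rest on few reads, a read is worth more FPKM at 45 ºC, and the constant of 0.1 FPKM sets the size of the WT response, so neither its direction nor the size of the difference can be relied on. LOC_Os02g58360 (difference 1.16), LOC_Os12g38560 (1.12) and LOC_Os11g10710 (1.01) were also higher at 45 ºC in *ntl3-1* and lower at 45 ºC in WT. LOC_Os12g38560 had 6.03, 4.72 and 7.53 FPKM in *ntl3-1* at 45 ºC, against 3.82, 4.21 and 4.48 FPKM in *ntl3-1* at 29 ºC. In WT it had 1.67, 1.68 and 1.76 FPKM with heat stress, against 2.32, 2.8 and 2.82 FPKM at 29 ºC. LOC_Os08g29660 went the other way (−1.40). It had 7.66, 8.73 and 8.46 FPKM in *ntl3-1* at 45 ºC, against 9.35, 11.6 and 17.5 FPKM in *ntl3-1* at 29 ºC. In WT it had 4.59, 4.49 and 3.67 FPKM with heat stress, against 2.11, 2.09 and 2.94 FPKM at 29 ºC.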

How the results depend on the processing

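The counts depended mostly on the fold threshold and on the constant for low values. The share over all genes tested was not counted under any alternative. Whether the 196 genes rose more often than all genes tested under these settings was therefore not tested. Without a fold threshold 84 of the 196 genes were higher and 38 lower at 45 ºC averaged over genotypes, and 33 were lower in *ntl3-1* and 31 in WT. With a constant of 1 FPKM 5 genes were lower averaged over genotypes and 6 in WT, and the median genotype difference was 1.17 at 45 ºC and 1.49 at 29 ºC. With each library left out in turn, 52 to 60 genes were higher and 9 to 17 lower averaged over genotypes, 44 to 52 higher and 14 to 18 lower in *ntl3-1*, and 55 to 65 higher and 11 to 17 lower in WT. The lowest counts of lower genes averaged over genotypes and in WT came without replicate 3 of WT at 29 ºC. The median genotype differences then ranged from 1.38 to 1.42 at 45 ºC and from 1.77 to 2.11 at 29 ºC. The rule was met by 68 genes with a factor of 2, by 107 with a minimum of 5 FPKM, and by 200 to 265 when a library was left out. A higher factor or minimum can only lower this count, and leaving out a library can only keep or raise it. The direction of these changes is thus fixed by the rule. Of 720 values of single named genes under the alternatives, 682 kept direction and call, 29 lost the call, 8 gained it and 1 reversed, LOC_Os02g37300, whose log2FC was −0.056 after quantile normalization. The heat effects of 11 of these genes were added after the data were seen.

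Over the 20729 genes with a mean of at least 1 FPKM, samples with the same replicate number did not deviate together. Over 18 such pairs the correlation of deviations from the group means ranged from −0.11 to 0.09, with 0 pairs above 0.1. Over the 196 genes alone it ranged from −0.19 to 0.42, with 8 of 18 pairs above 0.1, and the libraries of replicate 3 had positive median deviations in all 4 groups. Pairs with different numbers ranged from −0.49 to 0.36 over the 196 genes. The median was 0.07 for pairs with the same number and −0.06 for the others. Not every pair with the same number exceeded 0.1 and the labels give no shared source, so the numbers were not taken as a pairing. With the replicate block 56 genes were higher and 14 lower averaged over genotypes, 51 higher and 18 lower in *ntl3-1*, and 63 higher and 16 lower in WT.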
